A study of Arabidopsis thaliana with 12 samples.

Results

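Seedlings lacking HDA6, a histone deacetylase, were compared with wild type (WT) for their small RNAs in 500 bp regions of the Arabidopsis thaliana genome. The comparison used the hda6 and WT libraries of repeats 1 and 2, which are 4 of the 12 libraries of the study. It took the 4213 regions listed in the tables of both repeats, of 6125 listed in either, and set hda6 against WT within each repeat. All libraries came from total RNA of whole seedlings aged 10 days, grown on MS plates at 22 °C under 16 h of light and 8 h of dark. WT carried no mutation per the labels. The hda6 plants were homozygous mutants, but the labels name no allele, and the genotype field of repeat 1 reads had-/- where that of repeat 2 reads hda6-/-. The other genotypes were arid2/3/4 and epcr1/2, with mutations in subunits of the PEAT complexes, nrpd1, which lacks the largest subunit of RNA polymerase IV, and nrpe1, which lacks that of RNA polymerase V. The tables hold no value for the HDA6 transcript, so the genotype could not be checked from them. Fewer cells that make a small RNA and less of it per cell cannot be told apart in whole seedlings.

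HDA6 removes acetyl groups from histone tails and is known for keeping transposons, repeats and surplus ribosomal RNA genes silent. Most small interfering RNAs of plants start from transcripts of RNA polymerase IV and guide DNA methylation to the loci they match, with the help of transcripts made there by RNA polymerase V. Methylated cytosines lie in CG, CHG and CHH contexts, where H is any base but G.

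The values are whole-number scores, treated here as normalized abundances that the authors deposited; their scaling is not given in the sources used. WT scored at least 95 in repeat 1 and 98 in repeat 2 in each of the 4213 regions, and nrpd1 reached at most 0.197 and 0.199 of WT over all regions of either table. The set is thus one of abundant, RNA polymerase IV-dependent small RNAs of WT, and loci with small RNAs in hda6 but few in WT are not analysed here. Across regions, which are not independent replicates, Spearman's rho between repeats was 0.846 in WT and 0.959 in hda6. The regions fell into 2749 families that share at least 50% of their 24-base words, and 301 regions were mostly single-copy. A read that matches several copies could count in each, so the regions of a family may carry the same reads.

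Sequences of 5 regions show the kinds of DNA on which the changes fell. Each is the central 300 bases of a 500 bp region on the plus strand of TAIR10, from RefSeq, with CHG sites (CAG, CTG, CCG and CGG) in capitals. The first lost nearly all of its small RNAs in hda6 and is a unique sequence in the neighbourhood of a tRNA gene. The next is an AT-rich repeat beside the Mutator-like transposon AtMU1, and belongs to a family in which every tested region was lowered. The last 3 gained small RNAs, and they are a spacer beside ribosomal RNA genes, the pseudogene AT2G10780 and a member of the largest family in which every tested region was raised.
chr3:10753101-10753400, near-complete loss: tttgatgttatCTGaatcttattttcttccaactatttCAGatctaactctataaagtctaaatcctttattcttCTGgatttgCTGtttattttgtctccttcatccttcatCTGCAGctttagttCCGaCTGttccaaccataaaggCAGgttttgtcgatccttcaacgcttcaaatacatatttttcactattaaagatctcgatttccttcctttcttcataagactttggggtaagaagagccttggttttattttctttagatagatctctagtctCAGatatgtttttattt
chr4:5540601-5540900, lowered beside AtMU1: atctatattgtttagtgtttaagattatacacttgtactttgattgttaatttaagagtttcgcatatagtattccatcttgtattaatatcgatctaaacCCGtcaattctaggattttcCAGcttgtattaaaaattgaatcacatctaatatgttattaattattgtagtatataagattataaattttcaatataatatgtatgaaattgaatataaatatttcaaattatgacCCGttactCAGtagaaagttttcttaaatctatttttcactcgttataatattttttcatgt
chr3:14204601-14204900, raised beside ribosomal RNA genes: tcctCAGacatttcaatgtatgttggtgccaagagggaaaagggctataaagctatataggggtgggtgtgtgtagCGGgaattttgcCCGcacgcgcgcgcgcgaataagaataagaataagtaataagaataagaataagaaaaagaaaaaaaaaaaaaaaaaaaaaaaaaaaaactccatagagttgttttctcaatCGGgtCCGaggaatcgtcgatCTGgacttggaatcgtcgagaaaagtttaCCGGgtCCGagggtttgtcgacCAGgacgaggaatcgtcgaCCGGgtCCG
chr2:4242101-4242400, raised in a pseudogene: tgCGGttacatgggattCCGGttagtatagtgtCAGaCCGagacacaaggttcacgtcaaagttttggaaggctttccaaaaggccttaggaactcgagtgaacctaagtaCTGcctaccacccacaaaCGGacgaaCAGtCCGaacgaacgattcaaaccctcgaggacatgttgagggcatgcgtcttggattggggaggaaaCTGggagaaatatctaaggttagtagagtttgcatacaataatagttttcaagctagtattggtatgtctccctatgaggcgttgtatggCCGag
chr1:15834101-15834400, raised in a pericentromeric family: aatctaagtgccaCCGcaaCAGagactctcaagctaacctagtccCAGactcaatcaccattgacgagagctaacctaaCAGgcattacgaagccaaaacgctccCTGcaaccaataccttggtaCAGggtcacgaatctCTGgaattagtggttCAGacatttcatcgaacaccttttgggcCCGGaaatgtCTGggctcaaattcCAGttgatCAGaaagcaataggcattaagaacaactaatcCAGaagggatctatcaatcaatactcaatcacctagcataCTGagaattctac
The windows of the lowered regions hold 10 and 4 CHG sites, in order, at GC contents of 33.0% and 22.7%. The windows of the raised regions hold 13, 11 and 15, at 43.3%, 46.7% and 44.3%.

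Small RNAs fell in hda6 along the chromosome arms and rose in many pericentromeric repeats. The median hda6 to WT ratio over all regions was 0.663 in repeat 1 and 0.811 in repeat 2. Limma on log2 scores, with the repeat as a block and Benjamini-Hochberg adjustment over the 4213 regions, called 2708 regions at an adjusted p under 0.05, which is 64.3% of those tested. Lowered regions numbered 1702, or 40.4%, and raised regions 1006, or 23.9%. Both repeats moved the same way in 3917 regions, or 93.0%, with 2660 lower and 1257 higher in hda6. On the log2 scale with a pseudocount of 117, the median ratio was -0.34 in repeat 1 and -0.18 in repeat 2, with a mean of -0.26 ± 0.11 (SD, n = 2). The pseudocount shrinks the fold change of low scores, so ratios of the scores themselves are given beside fitted changes. Scaling the libraries to a common median score gave 2442 lowered and 1220 raised regions. The number called also depended on single libraries. It was 514 lowered and 252 raised without repeat 1 of hda6, 529 and 139 without repeat 2 of hda6, 762 and 855 without repeat 1 of WT, and 1451 and 223 without repeat 2 of WT.

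**Figure D1:**
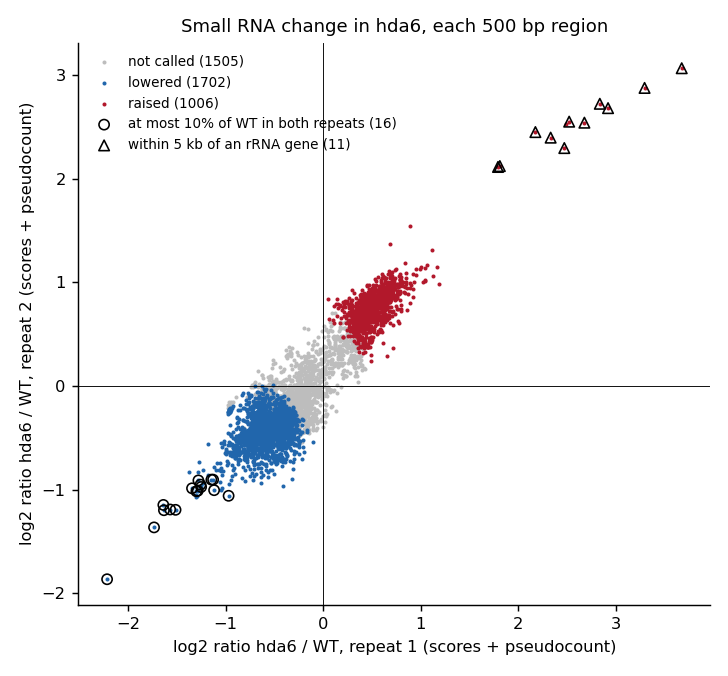
Each point is a 500 bp region, with the log2 ratio of hda6 to WT in repeat 1 on the horizontal axis and in repeat 2 on the vertical axis, on scores plus a pseudocount of 117. The 11 regions within 5 kb of an rRNA gene (triangles) lie at the upper right, together with 1 region 5677 bp from such a gene, and the 16 regions at or under 10% of WT in both repeats (circles) lie at the lower left.

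Nearly all small RNA was gone in hda6 from 16 regions, which scored at or under 10% of WT in both repeats. That is 0.38% of the regions tested, so near-complete loss was uncommon among the 1702 lowered ones. The 16 belonged to 16 families, 12 lay in the arms, and 12 had a median of 1 copy per 24-base word, with at most 4 copies in any. None overlapped a pseudogene. Of the 16, 5 overlapped a protein-coding gene, 6 lay within 1 kb upstream of one and 2 lay within 1 kb of a tRNA gene. Of all 4213 regions, 1233 lay in the arms, 647 overlapped a pseudogene and 351 a protein-coding gene. A further 538 lay upstream of a protein-coding gene, 20 lay within 1 kb of a tRNA gene, and the median copy number of all regions was 8. With only 16 regions, the absence of pseudogenes carries little weight. For 14 of them no other tested region lay within 1 kb. The same count was not made over all regions, so isolation cannot be called a trait of these losses. WT scored 118 to 436 in repeat 1 and 102 to 313 in repeat 2, while hda6 scored 0 to 17 and 0 to 10; the 10% limit itself keeps the genotypes apart.

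The region chr3:10753001-10753500, whose sequence opens the set above, scored 436 and 313 in WT and 2 and 1 in hda6. It lies 498 bp downstream of the tRNA gene AT3G28685. Its fitted log2 change was -2.04 (SE 0.13, adjusted p = 5.2e-55 by limma), the largest fall of all regions. It had 1 copy. Over the 20 regions within 1 kb of a tRNA gene, 14 were lowered and none was raised by limma at an adjusted p under 0.05, beside 40.4% and 23.9% over all regions and 70.2% lowered in the arms, and the remaining 6 were not called (0 raised at an unadjusted p under 0.05 as well). Near-complete loss was found in 2 of the 20. Without repeat 1 or 2 of hda6, 9 and 6 of the 20 were lowered.

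Within genes, chr1:26197001-26197500 lies over coding sequence of AT1G69650. It scored 279 and 187 in WT and 2 and 1 in hda6, a fitted log2 change of -1.55 (SE 0.10, adjusted p = 5.5e-48 by limma). At chr2:18396001-18396500, over coding sequence of GH9B12, which encodes a glycosyl hydrolase, WT scored 142 and 102 and hda6 was listed at 0 in both repeats. AT3G54730 held the other region listed at 0 in both hda6 libraries, chr3:20260001-20260500, with WT at 137 and 118. An adjoining pair, chr3:15915501-15916000 and chr3:15916001-15916500, covers coding sequence of AT3G44210 and the space beside it. The gene nearest the first is the pseudogene AT3G44205, 180 bp away. The first scored 118 and 127 in WT and 3 and 0 in hda6, and the other 164 and 115 in WT and 1 and 1 in hda6. The remaining protein-coding loss, chr4:410501-411000 in AT4G00953, went from 183 and 121 in WT to 6 and 1 in hda6. The long non-coding RNA gene AT5G03925 went from 198 and 125 to 7 and 5 at chr5:8667001-8667500.

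Losses upstream of genes included chr5:486501-487000, which ends 28 bp before MYB3R-5, a MYB transcription factor gene of the cell cycle. It scored 220 and 151 in WT and 1 and 0 in hda6, with a fitted log2 change of -1.35 (SE 0.09, adjusted p = 4.6e-47 by limma). The same region scored 2 in both arid2/3/4 libraries, but 97 and 111 in epcr1/2. The region chr5:250501-251000, 686 bp upstream of AT5G01670, went from 263 and 149 in WT to 5 and 3 in hda6. The member nearest the 10% limit was chr2:18803501-18804000, 190 bp upstream of AGL6, a MADS-box transcription factor gene of flower development. It scored 213 and 140 in WT and 17 and 10 in hda6. The nearest region outside, chr5:25968501-25969000 over AT5G65005, scored 152 and 145 in WT and 14 and 15 in hda6, and missed the limit at 10.3% in repeat 2.

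The comparisons of the other mutants share the WT libraries, so their values are given side by side without a test. At the 16 regions the median percent of WT in repeats 1 and 2 was 1.18 and 0.738 in hda6, and 3.30 and 3.12 in nrpe1. It was 41.1 and 64.1 in arid2/3/4 and 37.3 and 53.9 in epcr1/2. In nrpe1, 11 of the 16 were also at or under 10% of WT in both repeats. Such a fall in nrpe1 was found in 535 of all 4213 regions, and hda6 kept a median of 51.0% and 67.9% of WT over those 535. Limma called 435 of the 535 lowered in hda6 and none raised (0 also at an unadjusted p under 0.05), beside 40.4% and 23.9% over all regions. The 535 had a median of 1 copy per 24-base word and a median GC content of 28.4%. Regions of like kind were lowered nearly as often, with 75.1% of mostly single-copy regions lowered and 0 raised, and 70.2% of arm regions lowered.

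**Figure D2:**
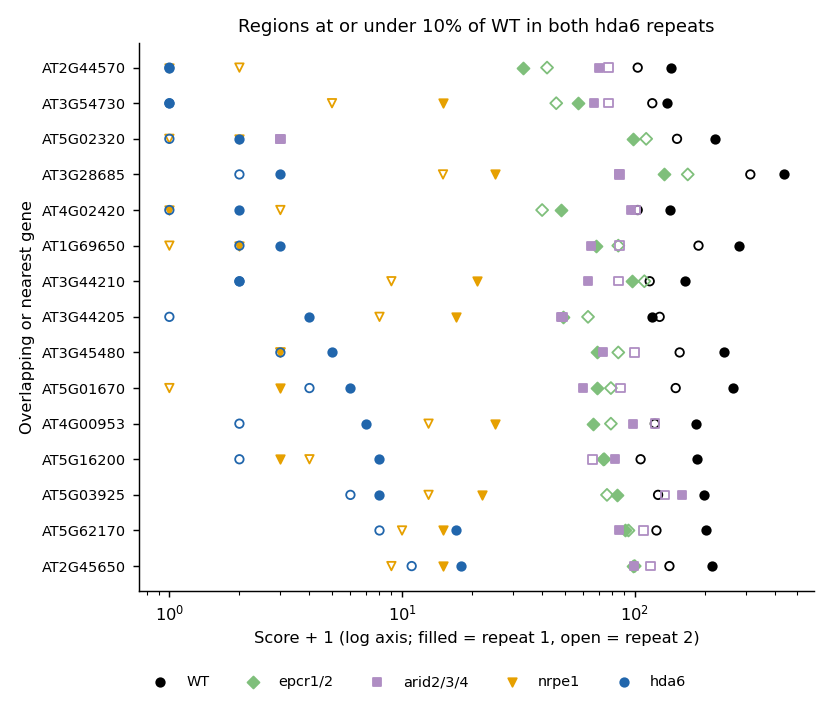
Scores plus 1 on a log axis for 15 of the 16 regions at or under 10% of WT in both hda6 repeats, with 1 row per region named by its overlapping or nearest gene; filled symbols are repeat 1 and open symbols repeat 2. In each row both WT scores are above 100 and both hda6 scores are 17 or lower, while arid2/3/4 lies near hda6 only at AT5G02320, where it scores 2 in both repeats.

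The largest rises in hda6 lay beside the annotated ribosomal RNA genes of chromosomes 2 and 3, the copies of a large repeated gene family that the reference holds. All 11 regions within 5 kb of an rRNA gene were raised, 3 on chromosome 2 and 8 on chromosome 3, beside 23.9% raised over all regions. They were 4.10 to 16.5 times WT in repeat 1, with a median of 7.69, and 5.93 to 10.6 times in repeat 2, with a median of 7.84. The highest WT scores were 568 and 497 and the lowest hda6 scores 1873 and 1169. Over all 4213 regions, hda6 was higher than WT in both repeats in 1257. Summed over the 11, the score went from 4640 to 36719 in repeat 1 and from 3278 to 26274 in repeat 2. The 11 regions form 6 families, and they are not independent.

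The strongest rise was at chr2:1501-2000, over coding sequence of AT2G01008, 1706 bp from the nearest rRNA gene. It scored 375 and 391 in WT and 6186 and 4136 in hda6, a fitted log2 change of 3.37 (SE 0.26, adjusted p = 7.6e-37 by limma). Its counterpart on chromosome 3, chr3:14195501-14196000, over AT3G41762, scored 550 and 497 in WT and 6444 and 4389 in hda6, a fitted change of 3.09 (SE 0.27, adjusted p = 6.9e-28 by limma). The first shares 78.0% of its 24-base words with the second, so the same reads may count in both. A further pair, chr2:2001-2500 and chr3:14196001-14196500, shares 83.9% of words, and rose from 461 and 242 to 1888 and 1436 and from 465 and 245 to 1928 and 1458. On the other side of the chromosome 3 genes, chr3:14203501-14204000 in the non-coding gene AT3G06365 scored 176 and 163 in WT and 2106 and 1678 in hda6. Its fitted log2 change was 2.80 (SE 0.24, adjusted p = 1.1e-28 by limma). The spacer printed above belongs to chr3:14204501-14205000, which went from 410 and 278 in WT to 3654 and 2490 in hda6, a fitted change of 2.78 (SE 0.24, adjusted p = 1.7e-27 by limma).

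Most regions farther than 5 kb from the rRNA genes rose less, but the rise did not fall steadily with distance. At 1206 bp, chr2:2001-2500 was 4.10 and 5.93 times WT, less than regions farther from the genes. At 5677 bp, chr3:14191501-14192000 still went from 380 and 227 to 2684 and 1867, and it shares its family with regions inside the 5 kb. At 6177 bp on the same side, chr3:14191001-14191500 scored 171 and 170 in WT and 215 and 249 in hda6. At 6085 bp on the other side, chr3:14206001-14206500 scored 355 and 262 in WT and 707 and 667 in hda6. On chromosome 2, chr2:11501-12000, 5556 bp away, scored 249 and 149 in WT and 579 and 447 in hda6. Rises of more than 4 times WT in repeat 1 were thus limited, among the regions tested, to those within 5677 bp.

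The 11 regions also scored above WT in both repeats of arid2/3/4 and epcr1/2, against the same WT libraries. Such scores were common. Over all regions, arid2/3/4 had a median of 87.7% and 119% of WT in repeats 1 and 2, and epcr1/2 127% and 195%. Over all regions raised in hda6, the medians were 204% and 311% in arid2/3/4 and 210% and 320% in epcr1/2. Over the 11, arid2/3/4 was 1.64 to 9.51 times WT in repeat 1 and 2.18 to 8.81 times in repeat 2. Values of epcr1/2 ran from 2.29 to 6.99 and from 2.57 to 7.98 times WT, and those of nrpe1 from 0.773 to 1.60 and from 0.527 to 1.60. At chr2:1501-2000 the scores in repeats 1 and 2 were 6186 and 4136 in hda6, 1643 and 1212 in arid2/3/4, 1052 and 1005 in epcr1/2 and 290 and 206 in nrpe1.

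**Figure D3:**
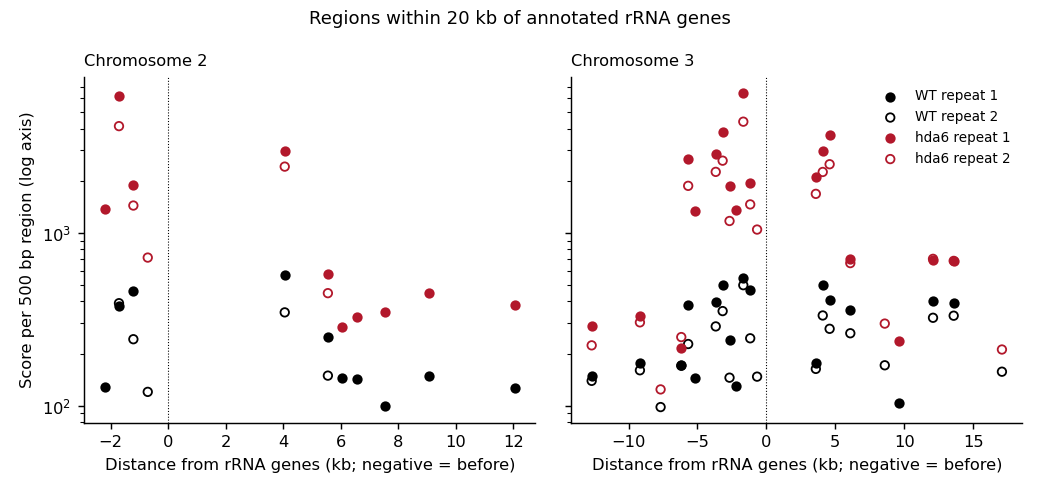
Score per 500 bp region on a log axis against distance from the annotated rRNA genes of chromosomes 2 and 3, within 20 kb, for both repeats of WT (black) and hda6 (red), including regions listed in 1 table only. Within 5 kb the tested regions score 145 to 568 in WT and 1169 to 6444 in hda6, and beyond about 6 kb the genotypes lie closer together.

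More than 6 kb from the rRNA genes, rises were smaller. Of the 1006 raised regions, 389 were pericentromeric regions over pseudogenes and 599 were pericentromeric regions that overlap none. At least 2 times WT in both repeats was reached by 118 regions of 63 families, which is 2.8% of those tested. Of these, 112 lay within 3 Mb of the centromere and 90 overlapped an annotated pseudogene. Both the 1006 and the 118 include the 11 regions beside rRNA genes. At least 3 times WT was reached by 13 regions, and 11 of them were those beside rRNA genes. Another was chr3:14191501-14192000, 5677 bp from such a gene. The largest fitted rise more than 6 kb from an rRNA gene was at chr5:13331001-13331500, 453 bp upstream of the pseudogene AT5G35065, which scored 172 and 129 in WT and 421 and 602 in hda6. Its fitted log2 change was 1.22 (SE 0.18, adjusted p = 3.7e-10 by limma). The pseudogene region chr2:4242001-4242500 in AT2G10780, whose central window is printed above, scored 170 and 109 in WT and 506 and 445 in hda6, also with a fitted change of 1.22 (SE 0.18, adjusted p = 2.5e-09 by limma). The region just inside the limit of 2 times, chr4:1695001-1695500, scored 149 and 107 in WT and 298 and 257 in hda6, and the one just outside, chr1:15453001-15453500, 260 and 165 in WT and 519 and 415 in hda6.

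Of the 647 regions over pseudogenes, limma raised 399 and lowered 62, beside 23.9% and 40.4% over all regions. Their median log2 ratio was 0.41 in repeat 1 and 0.63 in repeat 2, where the median over all regions was negative in both. Position divided the pseudogenes further. Within 3 Mb of the centromere 389 of 563 rose and 36 fell, at medians of 0.44 and 0.68. In the arms, 10 of 84 were raised and 26 lowered, at medians of -0.22 and 0.02. The pericentromeric regions that overlap no pseudogene were 599 raised and 801 lowered of 2417. The pattern held when 1 region stood for each family, with 250 raised and 56 lowered of 402 pseudogene regions. Raised pseudogene regions numbered 123 without repeat 2 of WT, 124 without repeat 1 of hda6 and 93 without its repeat 2, and lowered ones 25 without repeat 1 of WT and 15 and 22 without repeats 1 and 2 of hda6.

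In the lists that follow, the shares to set beside each count are 40.4% lowered and 23.9% raised over all regions, and 70.2% lowered and 1.46% raised over the arms. Protein-coding gene bodies held 351 tested regions, of which 206 (58.7%) were lowered and 10 (2.85%) raised, with median log2 ratios of -0.48 and -0.33. The 1 kb upstream of protein-coding genes held 538, with 368 (68.4%) lowered and 9 (1.67%) raised and medians of -0.51 and -0.31, near those of the arms. Without repeat 1 of WT, repeat 1 of hda6 or repeat 2 of hda6, lowered regions numbered 95, 76 and 80 in gene bodies and 196, 139 and 139 upstream. Regions over non-coding RNA genes other than MIRNA, tRNA and rRNA genes were lowered in 38 (61.3%) and raised in 8 (12.9%) of 62, with 20, 18 and 15 lowered without the same 3 libraries. Mostly single-copy regions were lowered in 226 (75.1%) and raised in none of 301 by limma, also with 0 raised at an unadjusted p under 0.05. Without those libraries in turn, 128, 118 and 117 were lowered, and 3 were raised without repeat 1 of WT. By position, 105 of 141 were lowered in the pericentromere and 121 of 160 in the arms.

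Regions over annotated MIRNA genes numbered 19, of which 4 (21.1%) were lowered and 1 (5.26%) raised, beside 40.4% and 23.9% over all regions, with median log2 ratios of -0.10 and -0.10. Lowered ones numbered 2, 2 and 1 without repeat 1 of WT, repeat 1 of hda6 and repeat 2 of hda6, and the raised one was not called without either of the latter or repeat 2 of WT. Their scores are those of the region and need not come from the mature miRNA. The called ones are named here after their values were seen. MIR5635a scored 146 and 115 in WT and 45 and 71 in hda6, MIR8172 145 and 122 in WT and 72 and 60 in hda6, and MIR5643a 172 and 202 in WT and 86 and 112 in hda6. The others were the lowered region over AT1G51320, at 190 and 139 in WT and 109 and 119 in hda6, and the raised one over AT5G29975, at 214 and 115 in WT and 364 and 251 in hda6. At 6 regions that overlap a MIR8167 gene but no protein-coding gene, WT scored 157 to 337 in repeat 1 and 114 to 223 in repeat 2. Scores of hda6 there were 113 to 312 and 111 to 188. Of the 6, 0 were called, with limma adjusted p between 0.32 and 0.74 and 0 under 0.05 unadjusted, while nrpe1 scored 11 to 17 and 7 to 12 there. A further region, chr3:17469501-17470000, overlaps both MIR8167b and the protein-coding gene AT3G47410. It scored 201 and 133 in WT, 231 and 95 in hda6 and 5 and 2 in nrpe1. Limma did not call it in hda6 (adjusted p = 0.72).

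At loci that are standard examples of RNA-directed DNA methylation 5 regions were tested, and all were lowered. The shares lowered were 40.4% over all regions and 70.2% over the arms, where the 2 regions beside MEA lie. In the pericentromere, where the others lie, the share was 28.1%. Beside MEA, an imprinted Polycomb gene, chr1:550001-550500 scored 129 and 114 in WT and 41 and 66 in hda6, a fitted log2 change of -0.49 (SE 0.10, adjusted p = 3.8e-05 by limma). The adjoining chr1:550501-551000 scored 251 and 215 in WT and 116 and 165 in hda6. Beside AtMU1, chr4:5540001-5540500 scored 521 and 405 in WT and 286 and 273 in hda6, and chr4:5540501-5541000, whose central window is printed above, 238 and 218 in WT and 146 and 138 in hda6. The region beside AT5G27845, the neighbour of a solo long terminal repeat, scored 618 and 491 in WT and 359 and 337 in hda6. In all 5, hda6 was lower than WT in both repeats, as in 2660 of all 4213 regions. The limma adjusted p of the last 4 lay between 0.0097 and 0.017. These 4 calls were lost without repeat 1 of WT or either library of hda6, and that of chr4:5540501-5541000 also without repeat 2 of WT, with the change negative each time. The call at chr1:550001-550500 was lost under quantile normalization, at -0.19. The regions at FWA, SDC, ROS1, QQS and APOLO were not among those tested.

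Along the chromosomes, the balance of calls changed with distance from the centromere. In the arms, more than 3 Mb from it, 865 of 1233 regions were lowered and 18 raised, and the median log2 ratio was -0.51 in repeat 1 and -0.31 in repeat 2. Within 3 Mb, 837 of 2980 were lowered and 988 raised, at medians of -0.20 and -0.09. Scaling the libraries to a common median score moved the median of all regions by less than its SD. It still changed the calls over all regions to 2442 lowered and 1220 raised, and those of the arms to 1018 and 37. Within 3 Mb the calls became 1424 lowered and 1183 raised, so the pericentromere as a whole has no direction that holds under both scalings. Rises were densest in a belt between 0.5 and 1 Mb, where 295 of 444 regions were raised and 45 lowered, at medians of 0.40 and 0.64. Its medians were positive in both repeats on each of the 5 chromosomes. The innermost 0.5 Mb had 371 raised and 346 lowered of 1296, with medians of -0.24 and -0.23, which became 445 raised and 684 lowered at a common median score. Chromosome 3 alone had positive medians there, of 0.36 and 0.59. From 1 to 2 Mb, 247 of 699 were raised and 211 lowered, and from 2 to 3 Mb 75 of 541 were raised and 235 lowered. Beyond 5 Mb, 573 of 797 were lowered and 5 raised.

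Of the 18 raised regions in the arms, 3 lay beside the rRNA genes of chromosome 2, 10 overlapped pseudogenes and chr2:10001-10500 did both. On chromosome 5 the pseudogene AT5G38705 held or adjoined 4 of them, among them chr5:15495501-15496000, which scored 194 and 117 in WT and 422 and 357 in hda6. The arm counts of raised regions moved with scaling, to 37 with libraries at a common median and 64 with quantile normalization.

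**Figure D4:**
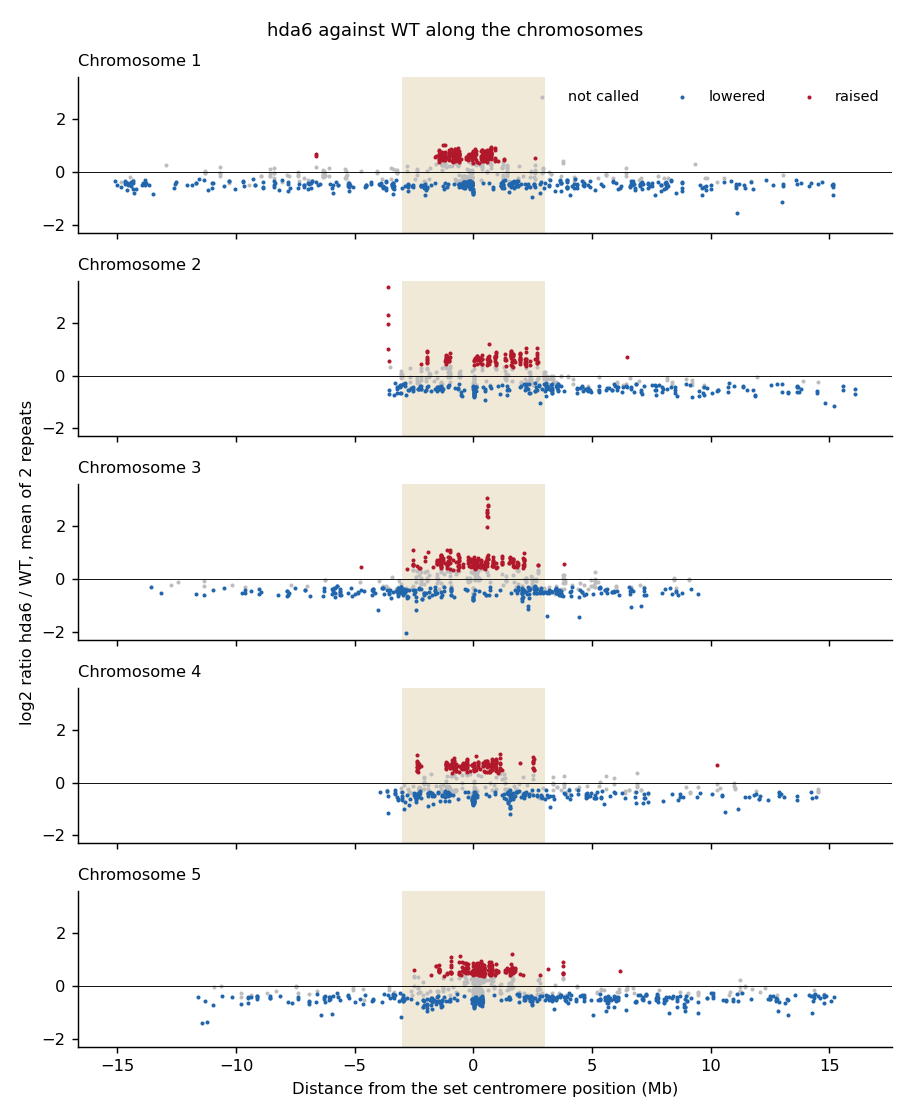
Log2 ratio of hda6 to WT, as the mean of 2 repeats, for each region against its distance in Mb from a set centromere position, in 1 panel per chromosome, with the 3 Mb on either side shaded. Raised regions (red) cluster within the shading and lowered regions (blue) extend through both arms; the highest points are the regions beside rRNA genes, at the left end of chromosome 2 and inside the shading of chromosome 3.

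Single-region calls made up 60.3% of lowered and 34.5% of raised regions. Joining called regions of the same direction whose starts are 500 bp apart gave 1282 lowered runs, of which 1027 were single regions and 81 had 3 or more. Raised regions gave 622 runs, with 347 single regions and 93 of 3 or more. The 4 longest lowered runs lay next to each other at the centromere of chromosome 4, led by chr4:3965501-3977000, where 23 adjoining regions were lowered. Its median scores were 674 and 714 in WT and 317 and 430 in hda6. The others there, of 15, 12 and 11 regions, had medians of 612 to 714 in repeat 1 of WT and 303 to 348 in repeat 1 of hda6. The longest raised run, chr2:5198001-5201500 at AT2G12690, had 7 regions, with medians of 172 and 147 in WT and 337 and 391 in hda6. The 23 regions of the longest run belong to 7 families, and regions of 1 family may share reads.

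Of the 2749 families, 0 held both a lowered and a raised region. Because a family shares words, and so may share reads, this is partly how families are built. Of the 32 families with at least 10 tested regions, every region was lowered in 2, raised in 8 and not called in 6. The largest all-lowered family, to which the AtMU1 region belongs, had 42 regions on 5 chromosomes. Its median scores were 318 and 340.5 in WT and 173 and 174.5 in hda6, and its ratios ran from 0.346 to 0.637 and from 0.367 to 0.761. The largest all-raised family, the source of the chromosome 1 sequence above, had 61 regions on 5 chromosomes, with medians of 287 and 200 in WT and 519 and 494 in hda6. Another all-raised family of 10 pseudogene regions on 5 chromosomes rose 2.33 to 2.79 times in repeat 1 and 2.73 to 3.30 times in repeat 2. A tandem family of 100 regions on chromosome 5 had no call, with medians of 172.5 and 192.5 in WT and 132 and 164 in hda6. Its ratios ran from 0.660 to 0.872 in repeat 1 and from 0.685 to 0.973 in repeat 2, so each region was below WT. Scaling the libraries to a common median score lowered 34 of the 100, and quantile normalization 15.

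Lowered regions were AT-rich and raised regions GC-rich, and base composition was no part of how they were called. The median GC content was 29.2% in lowered, 34.6% in uncalled and 39.6% in raised regions. Raised regions held a median of 21 CHG sites, against 8 in lowered and 9 in uncalled ones, and the 118 at 2 times WT or more in both repeats held 29. The median copy number of their words was 18 in raised and 3 in lowered regions. Of the 690 regions with at most 25% GC, 81.9% were lowered and 0.29% raised. Between 35% and 40%, 23.5% of 1330 were lowered and 35% raised, and above 45%, 3.56% of 225 were lowered and 79.1% raised. The same order was found within the pericentromere, where raised regions went from 0.465% at most 25% GC to 82.4% above 45%. In the arms, lowered regions went from 82.7% to 33.3%, the latter over 15 regions. With 1 region per family, 81.6% were lowered in the lowest class and 75.4% raised in the highest.

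GC content also went with differences between libraries of the same genotype. The median log2 ratio of repeat 2 to repeat 1 of WT was -0.15 in the lowest GC class and -0.40 in the highest, and in hda6 0.01 and -0.24. The change in hda6 over the same classes was larger, from -0.56 to 0.57 in repeat 1 and from -0.38 to 0.72 in repeat 2. The part of a GC effect of library preparation in the result was not tested. In arid2/3/4, compared with the same WT libraries, the medians went from -0.48 and -0.28 to 0.79 and 1.09, in epcr1/2 from -0.35 and -0.07 to 0.77 and 1.22, and in nrpe1 from -1.16 and -1.22 to 0.09 and 0.13.

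**Figure D5:**
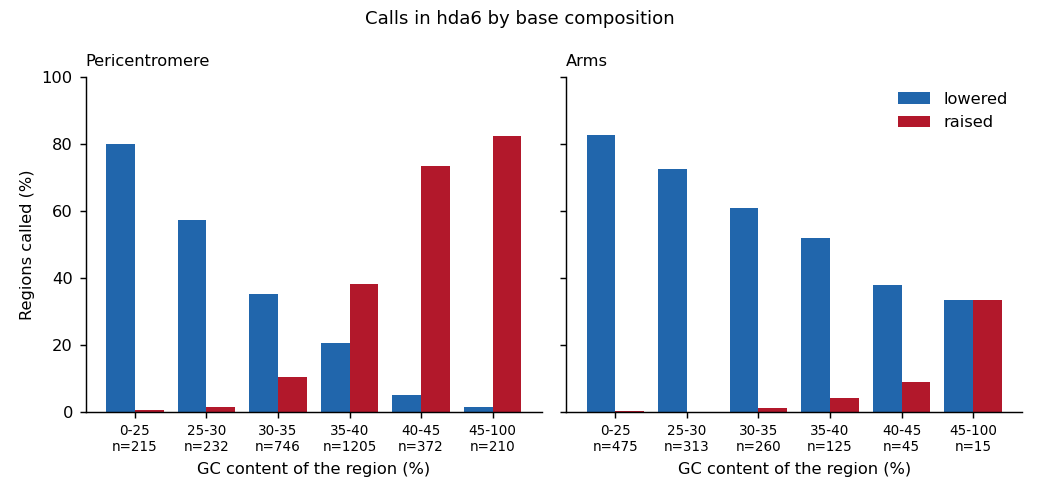
Percent of regions lowered (blue) and raised (red) in hda6 by limma, in classes of GC content, for the pericentromere and the arms, with the number of regions under each class. Lowered regions fall and raised regions rise with GC content; in the pericentromere raised regions go from 0.465% to 82.4%.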

How the data were processed

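Small RNA libraries of 6 genotypes with 2 repeats each were grouped by their titles. The authors mapped reads with Bowtie 0.12.2 to TAIR10, per the submitters' processing notes. The deposited tables, 1 per repeat, hold a score for each 500 bp region. These are treated as normalized scores rounded by the authors to whole numbers, since in WT the values recur with a regular period. The sources used here do not give the read sizes, the scaling, the handling of reads with several matches or the choice of regions, so the depth of the libraries is unknown and no counting interval is given. Every column matched a sample by its title, leaving 0 without one.

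From these, limma 3.58.1 in R 4.3.3 was fitted on log2 values of the score plus 117. This pseudocount was set at the lower quartile of nonzero scores. The fit used 10 libraries of 5 genotypes with the repeat as a block and a trended prior. It left out nrpd1, whose near-0 scores have almost no spread. Near-0 scores of hda6 and nrpe1 stayed in the fit, so the SE and limma p-values of the near-complete losses may be too small. Residual degrees of freedom were 4, the prior outweighed them fully, and p-values therefore rest on the trend of spread with level. They were adjusted by Benjamini-Hochberg over 4213 regions and called under 0.05. The labels do not say that repeats came from separate plants grown apart, so the spread behind each p-value may be technical. The repeats have separate tables, and the deviations of WT and hda6 from their group means correlated within a repeat at r = 0.44, over regions.

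Genes and sequence came from RefSeq, with file coordinates changed to count from 1. The pericentromere is within 3 Mb of a centromere position set per chromosome. Copies were counted with 24-base words, and mostly single-copy regions had 80% or more unique words. Transposon classes could not be assigned from the annotation, so pseudogenes stand in their place, and the upstream list leaves out gene bodies, a choice made after the annotation was seen. The members and lists were chosen with earlier results of these data known. Named regions were the 12 largest falls and rises with at most 2 per family, the 12 near-complete losses with the lowest ratio, the longest runs, the regions beside rRNA genes and those at known loci, and a few others are said to be named after their values were seen or lie at a threshold. Of the near-complete losses, 1 is counted but not otherwise reported here. Alternatives changed the pseudocount, filter, scaling, block, genotypes in the fit, prior, thresholds and regions, and left out each library in turn.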

Additional observations from a re-analysis of the deposited data

Results flagged for a closer look

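Some regions outside the comparison, because only 1 table lists them, also showed small RNAs far above WT beside the rRNA genes. In the repeat 1 table hda6 scored 1370 at chr2:1001-1500, where WT scored 128, and 1354 at chr3:14195001-14195500, where WT scored 130. In the repeat 2 table hda6 scored 718 at chr2:2501-3000, where WT scored 120, and 1043 at chr3:14196501-14197000, where WT scored 147. Of the 1630 regions in the repeat 1 table only, 257 were at least 2 times WT, 47 were at or under 10% of WT, and the median ratio was 1.26. Of the 282 in the repeat 2 table only, 3 were at least 2 times WT, 1 was at or under 10%, and the median ratio was 0.410. With 1 library per genotype in each table these values have no replicate check.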

How the results depend on the processing

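Named regions were refitted under each alternative. Direction and call were kept in 442 of these values, the call but not the direction was lost in 32, and 0 reversed. Without the replicate block, 1702 regions were lowered and 1000 raised, so ignoring the pairing of repeats left nearly the same counts. Leaving out 1 library at a time gave 514 to 1451 lowered and 139 to 855 raised regions, with 183 to 578 lowered and 132 to 836 raised in the pericentromere and 327 to 873 lowered and 6 to 19 raised in the arms. In these fits the lone library of a genotype is assumed to vary like the others. The 11 regions beside rRNA genes stayed raised in each of them. Requiring a 2-fold fitted change left 6 lowered and 12 raised (1 and 9 in the pericentromere, 5 and 3 in the arms). Regions above the lower quartile of mean score gave 860 lowered (545 in the pericentromere, 315 in the arms). Mostly single-copy regions gave 216 lowered (105 and 111) and 0 raised (0 and 0). With 1 region per family, 618 were raised (611 and 7), and 56 reached 2 times WT in both repeats. At a common median score, 2442 regions were lowered and 1220 raised, and 275 reached 2 times WT. Of these calls, 1424 pericentromeric and 1018 arm regions were lowered and 37 arm regions raised. Quantile normalization gave 1681 lowered and 1303 raised, with 64 raised in the arms.

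Regions at or under 20% of WT numbered 25, and 67 regions of the whole repeat 1 table were at or under 10%. Rises passed 1.5 times WT in 744 regions and 3 times in 13. At 2 times WT there were 776 regions in repeat 2 alone, 378 in the whole table of repeat 1 and 779 in the whole table of repeat 2. A pseudocount 10 times smaller moved the median log2 ratio to -0.42 (-0.23 in the pericentromere, -0.66 in the arms), and the filter on low scores moved that of the pericentromere to -0.053. Joining regions up to 2 kb apart gave 150 raised runs of 3 or more. Within 1 kb of an rRNA gene 0 regions were tested, and within 20 kb 18 of 19 were raised. The causes of these shifts were not tested, beyond the smaller sets of regions or samples in some. No counting error can be given for the scores, and 2 libraries per genotype limit the precision.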
